A study of Mus musculus with 6 samples.

Results

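A small part of the mouse main olfactory epithelium senses chemicals without the usual odorant receptors and cyclic AMP cascade. One such class, the guanylate cyclase D neurons that project to the necklace glomeruli, carries the receptor cyclase Gucy2d, the cyclic GMP-gated channel subunit Cnga3, the cyclic GMP-stimulated phosphodiesterase Pde2a and the carbonic anhydrase Car2, and responds to guanylin peptides, carbon disulphide and carbon dioxide. Another class carries the channel Trpc2, better known from the vomeronasal organ, and its type B cells also make Gucy1b2, a beta subunit of soluble guanylate cyclase. The genes described here are those of these classes that could be measured: of 7 named genes (Gucy2d, Cnga3, Pde2a, Car2, Trpc2, Gucy1b2 and the homeobox gene Emx1), 4 had a probe set annotated with exactly 1 gene symbol, Gucy1b2, Cnga3, Pde2a and Car2, among 14860 genes so named on the array. Each of the 4 was covered by 1 probe set. Gucy2d, Trpc2 and Emx1 matched 0 probe sets of the annotation used and are not analysed here, so the defining gene of each class was not read and the presence of these neurons in the samples was not checked through it.

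RNA came from the olfactory epithelium of 3 C57Bl/6 mice 5 days after closure of one nostril. The occluded group is the epithelium on the closed side (3 arrays), where odour stimulation was lowered. The contralateral group is the epithelium on the open side (3 arrays), where per the labels stimulation was raised, so no array came from an untreated mouse. Which arrays share a mouse is not given in the labels, so a p-value here speaks of array-to-array spread only. All values are robust multi-array average (RMA) expression values on the log2 scale, where a difference of 1 is a doubling, and all differences are occluded minus contralateral. Array medians were 8.119, 8.003 and 8.026 on the occluded arrays 1, 2 and 3. They were 7.974, 7.941 and 7.996 on the contralateral arrays 1, 2 and 3, so the sides did not overlap. The median difference of all 23332 probe sets was 0.06, and centring arrays on their median moved it to -0.02. Occluded replicate 1 stood apart from the other arrays, with correlations across probe sets of 0.977 to 0.983 against 0.986 to 0.989 among the rest. The mean over 8 markers of mature olfactory neurons was high on all 6 arrays, between 11.15 and 11.44. The lowest of the 8, Cngb1, was at a mean of 7.33. In bulk tissue, fewer cells of a type and less RNA per cell cannot be told apart.

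The measured genes of the noncanonical neurons were not shown to differ between the sides. After Benjamini-Hochberg adjustment across the array, limma called 0 of the 4 genes, and 0% of all probe sets. At an unadjusted p under 0.05 there was 1 gene, Gucy1b2, higher on the occluded side, where 3.81% of all probe sets were higher and 1.47% lower at that level. The sides did not overlap for 1 gene, Car2, higher on the occluded side, as for 7.49% of all probe sets, with 3.24% apart in the lower direction. In the direction of the difference, 3 of the 4 lay above 0, against 64.8% of all probe sets, with a median of 0.25. The cyclic nucleotide-gated channel subunit Cnga3 was the exception.

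Gucy1b2, the soluble cyclase subunit of the Trpc2 type B cells, had the largest difference of the 4, at a mean level of 7.17 that lay within the range of 14 background reference genes. Those genes, such as pancreatic and sperm genes, are not expected in nasal tissue, and their means ran from 5.01 to 7.78. Probes differ in brightness and no detection call was used, so Gucy1b2 was not shown to be above background here. Its log2 level was 7.69, 7.15 and 7.32 on the occluded arrays 1, 2 and 3, and 7.18, 6.84 and 6.86 on the contralateral arrays 1, 2 and 3. The sides overlapped, since occluded replicate 2 lay just under contralateral replicate 1. The means were 7.39 ± 0.27 (SD, n = 3) on the occluded and 6.96 ± 0.19 (SD, n = 3) on the contralateral side. The log2 difference was 0.43 (SE 0.17), with a 95% interval of 0.03 to 0.82, or 1.34-fold. The unadjusted limma p was 0.0386 and the p adjusted across the array was 0.823, so Gucy1b2 did not pass. Without occluded replicate 1, the highest array, the log2 difference was 0.28 at an unadjusted p of 0.0917. The unadjusted p was also above 0.05 without occluded replicate 3 (0.0622), contralateral replicate 2 (0.110) or contralateral replicate 3 (0.107).

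Cnga3, the channel subunit that cyclic GMP opens in guanylate cyclase D neurons and in cone photoreceptors, was close to equal on both sides. Its log2 level was 5.89, 6.10 and 6.04 on the occluded arrays 1, 2 and 3, and 5.99, 6.02 and 6.20 on the contralateral arrays 1, 2 and 3. The lowest array was occluded replicate 1 and the highest contralateral replicate 3, and the sides overlapped. The log2 difference was -0.06 (SE 0.10), and its 95% interval of -0.31 to 0.19 leaves room for a level 0.807-fold to 1.14-fold that of the open side. The limma adjusted p was 0.895. The mean level of 6.04 also lay within the range of the background reference genes, so Cnga3 was likewise not shown to be above background. Its log2 difference was -0.00068 without occluded replicate 1, its sign turned without contralateral replicate 3, at 0.0049, and it was -0.11 without occluded replicate 2.

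Pde2a, which breaks down cyclic nucleotides and is stimulated by cyclic GMP, varied more between arrays of a side than between sides. Its log2 level was 9.12, 8.65 and 8.81 on the occluded arrays 1, 2 and 3, and 8.80, 8.46 and 8.73 on the contralateral arrays 1, 2 and 3. The highest array was again occluded replicate 1, and the other occluded arrays lay within or just above the contralateral range. The means were 8.86 ± 0.24 (SD, n = 3) and 8.67 ± 0.18 (SD, n = 3). The log2 difference was 0.19 (SE 0.16), with a 95% interval of -0.18 to 0.56 and a limma adjusted p of 0.823. Without occluded replicate 1 the log2 difference was 0.06, without contralateral replicate 2 it was 0.09, and without occluded replicate 2 it was 0.30.

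Car2, the enzyme that turns carbon dioxide into the bicarbonate sensed by guanylate cyclase D neurons, was higher on every occluded array than on any contralateral one. Its log2 level was 10.82, 10.65 and 10.72 on the occluded arrays 1, 2 and 3, and 10.63, 10.19 and 10.48 on the contralateral arrays 1, 2 and 3. The gap between the sides was narrow, between occluded replicate 2 and contralateral replicate 1. The means were 10.73 ± 0.08 (SD, n = 3) and 10.43 ± 0.22 (SD, n = 3). The log2 difference was 0.30 (SE 0.13), with a 95% interval of -0.01 to 0.61, or 1.23-fold. The unadjusted limma p was 0.0585 and the adjusted p again 0.823, so Car2 did not pass. Without contralateral replicate 2, the lowest array, the log2 difference was 0.18.

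**Figure D1:**
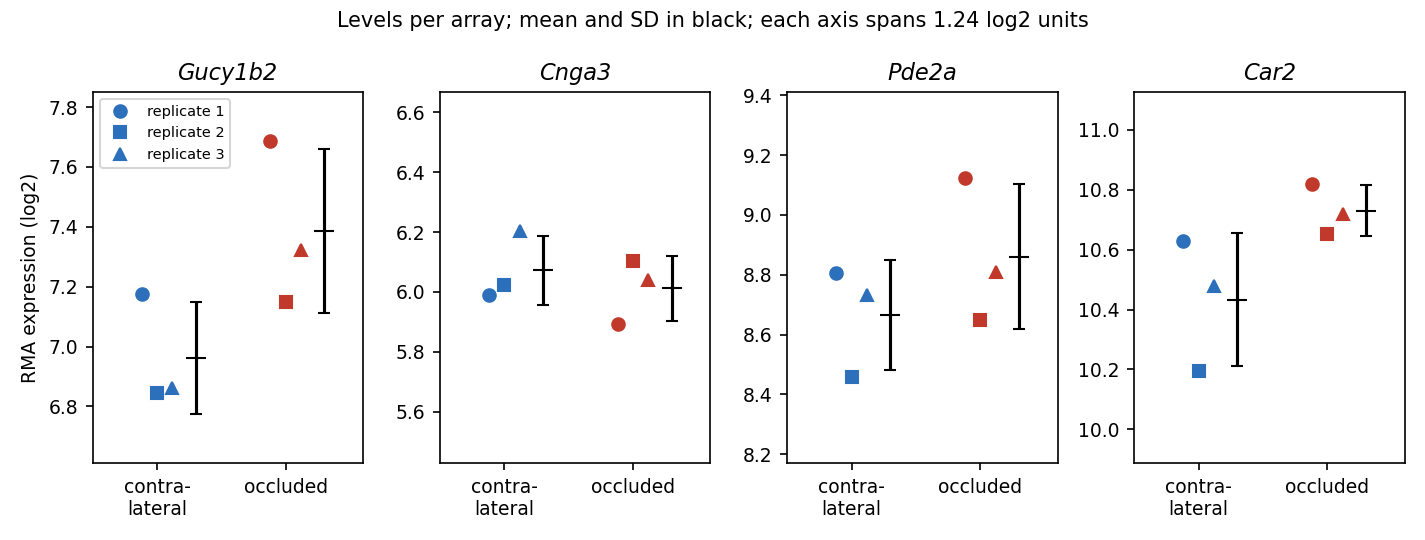
RMA log2 expression of Gucy1b2, Cnga3, Pde2a and Car2 on each array, with contralateral arrays in blue, occluded arrays in red, the replicate number by symbol, and the mean and SD of each side in black. Occluded replicate 1 is the highest array for Gucy1b2, Pde2a and Car2 and the lowest for Cnga3, and the sides are apart for Car2 alone.

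Gucy1b2, Pde2a and Car2 moved together over the 6 arrays and Cnga3 moved against them. Pearson's r was 0.88 between Pde2a and Gucy1b2, 0.87 between Car2 and Gucy1b2 and 0.86 between Pde2a and Car2. With Cnga3 it was -0.75 for Gucy1b2, -0.54 for Pde2a and -0.38 for Car2. These are descriptions of 6 arrays that share their preparation and scaling, and occluded replicate 1 is at an end of each range. The promoter stretches below show the DNA just before the annotated start of the members that RefSeq's promoter table held, for 2 genes that moved together and for Cnga3, which did not. Each is 150 bases from mouse build GRCm38.p6, on the gene's strand, and capitals mark a CCAAT box.
Gucy1b2, chr14:62456292-62456441, minus strand: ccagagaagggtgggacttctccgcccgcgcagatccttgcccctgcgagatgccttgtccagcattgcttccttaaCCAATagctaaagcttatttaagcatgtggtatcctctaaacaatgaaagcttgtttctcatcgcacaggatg
Pde2a, chr7:101421541-101421690, plus strand: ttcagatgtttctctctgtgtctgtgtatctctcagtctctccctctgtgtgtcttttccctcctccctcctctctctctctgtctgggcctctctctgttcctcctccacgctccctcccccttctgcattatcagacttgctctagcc
Cnga3, chr1:37218091-37218240, plus strand: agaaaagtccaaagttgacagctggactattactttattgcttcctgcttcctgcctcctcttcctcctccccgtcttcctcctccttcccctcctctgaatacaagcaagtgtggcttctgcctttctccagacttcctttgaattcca
On both strands, 3 motifs were searched: TAATTA, a homeodomain core, CCAAT and TATAAA. They do not overlap in these stretches, where the only match was CCAAT in Gucy1b2, at -73 to -69 from the start. Over 32851 promoter stretches of the same length, CCAAT was found in 24.5%, TATAAA in 7.57% and TAATTA in 2.73%. Pde2a has 5 and Cnga3 has 2 annotated windows in that table, and the first listed is shown.

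By likeness over the 6 arrays, among 8682 or 8683 other genes with a mean above the median of all probe sets, the nearest to Gucy1b2 were Prrx1, a homeobox gene of mesenchyme (r = 0.991), and Rbm17, a splicing factor (r = 0.982). The nearest to Pde2a were Flcn, the folliculin gene (r = 0.998), and 4632415L05Rik (r = 0.997). For Car2 they were Sel1l, of protein quality control in the endoplasmic reticulum (r = 0.993), and Aqp5, a water channel of glands (r = 0.991). For Cnga3 they were Rbm45, an RNA-binding protein (r = 0.979), and Vps35, of endosomal sorting (r = 0.974). Over so few arrays such values are common: 1425 genes had r over 0.9 with Pde2a, 332 with Gucy1b2, 120 with Car2 and 36 with Cnga3.

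Peptides and calcium sensors act on the receptor cyclase from outside and inside. In a list of 8 such ligands and activators, 0 passed over all probe sets and 0 had an unadjusted p under 0.05. The median difference was 0.03, against 0.06 for all probe sets. The gene with the smallest p was Guca2a, which encodes guanylin, a peptide that guanylate cyclase D neurons detect. Its log2 level was 6.77, 6.83 and 6.76 on the occluded arrays and 7.10, 6.83 and 7.18 on the contralateral arrays. Its difference was -0.25 (SE 0.11), at an unadjusted limma p of 0.0628 (adjusted p 0.823), and the sides did not overlap by a small margin. Its mean level of 6.91 lay within the background reference range, so Guca2a was not shown to be above background. Uroguanylin, encoded by Guca2b, was at -0.02 (SE 0.08), and the neuronal calcium sensor hippocalcin, encoded by Hpca, at 0.02 (SE 0.08). The mean levels of Guca2b and Hpca, 6.83 and 7.19, were also within that range.

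The Ms4a membrane proteins are carried by the necklace neurons, where they were described as chemoreceptors. Of 16 listed, 11 were measured, with mean log2 levels from 3.23 to 6.91, and none of these reached the highest background reference gene, at 7.78. None passed over all probe sets, and 1 had an unadjusted p under 0.05, Ms4a4b, lower on the occluded side at an unadjusted limma p of 0.00599 (adjusted p 0.823). Its log2 level was 3.00, 2.89 and 3.17 on the occluded arrays against 3.49, 3.35 and 3.46 on the contralateral arrays, under the range of the background reference genes. The median difference of the family was 0.04.

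Among the other guanylate cyclases, both subunits of the common soluble enzyme had higher values on every occluded array, and the receptor cyclases did not. Gucy1a1, the alpha subunit, was at 8.35, 8.24 and 8.06 on the occluded arrays and 7.88, 7.80 and 7.87 on the contralateral arrays. Its log2 difference was 0.37 (SE 0.10), at an unadjusted limma p of 0.00899 and an adjusted p of 0.823. Gucy1b1, the usual beta partner, was at 6.89, 6.83 and 6.84 on the occluded and 6.62, 6.47 and 6.66 on the contralateral arrays. Its log2 difference was 0.27 (SE 0.09), at an unadjusted limma p of 0.0221 and the same adjusted p. Without occluded replicate 1 these differences were 0.30 (unadjusted p 0.0180) and 0.25 (unadjusted p 0.0392). Npr1 and Npr2, the natriuretic peptide receptors, were at 0.16 (SE 0.17) and 0.17 (SE 0.16). The retinal receptor cyclases Gucy2e and Gucy2f were at -0.05 (SE 0.08) and -0.04 (SE 0.09), and Gucy2g, the receptor cyclase of the Grueneberg ganglion, at -0.03 (SE 0.08). Of the 7 measured, 2 had an unadjusted p under 0.05, both higher, and 0 passed. The mean level of Gucy1b1, 6.72, was within the background reference range and that of Gucy1a1, 8.03, above it. Npr1, Gucy2e and Gucy2g, at means of 7.59, 6.64 and 6.21, were also within that range. Gucy2f, at 4.94, was under it, and Npr2, at 8.53, above it. The ratio of Gucy1b2 to Gucy1a1 within an array differed by 0.06 between the sides on the log2 scale (exact permutation test, two-sided, p = 0.9, adjusted 0.9), and that of Gucy1b2 to Gucy1b1 by 0.16 (exact p = 0.5, adjusted 0.75). Adjustment was by Benjamini-Hochberg over the 6 such ratios tested across the families. Since Gucy1b2 was not shown to be above background, nothing is read from its ratios.

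Among the other cyclic nucleotide-gated channel subunits, 3 of 5 were measured and 0 passed. Cnga2, the cyclic AMP-opened subunit of ordinary olfactory neurons, was at 12.59, 12.47 and 12.50 on the occluded and 12.22, 12.24 and 12.32 on the contralateral arrays. Its log2 difference was 0.26 (SE 0.09), with an unadjusted limma p of 0.0208 and an adjusted p of 0.823. The ratio of Cnga3 to Cnga2 within an array differed by -0.32 (exact permutation p = 0.1, adjusted 0.3), from which nothing is read, since Cnga3 was not shown to be above background. The cone subunit Cngb3 was at -0.18 (SE 0.09) and Cngb1, the rod and olfactory beta subunit, at -0.05 (SE 0.09). Their mean levels, 5.40 and 7.33, were within the background reference range.

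Of 23 other phosphodiesterases 21 were measured, with a median difference of 0.06 beside 0.06 for all probe sets, and 0 passed. At an unadjusted p under 0.05 there were 2 higher and 1 lower. Pde4d, a cyclic AMP-specific enzyme, was at 0.24 (SE 0.09), and Pde6d, a prenyl-binding protein that ferries ciliary proteins, at 0.37 (SE 0.15). The one lower gene was Pde1c, whose product breaks down cyclic AMP in odour-sensing cilia, with a difference of -0.25 (SE 0.09). The log2 ratio of Pde2a to Pde1c was higher on every occluded array, by 0.44. The exact permutation test (two-sided) gave p = 0.1, the smallest that 3 against 3 arrays allow, and 0.3 after Benjamini-Hochberg adjustment over the 6 ratios. Since that test could not reach 0.05, it cannot decide whether the ratio differs between the sides. The ratio was also chosen after the values were seen, with Pde1c itself lower on every occluded array than on any contralateral one. Of the cyclic GMP-dependent kinases and nitric oxide synthases, 5 of 5 lay above 0, against 64.8% of all probe sets. By limma, 0 had an unadjusted p under 0.05. Without occluded replicate 1 the count above 0 was 3 of 5, and with arrays centred on their median it was 2 of 5. Prkg1, a kinase of smooth muscle, had the smallest p and was at 0.23 (SE 0.12). The mean levels of Prkg2, Nos1, Nos2 and Nos3, at 5.53, 7.07, 6.27 and 7.55, were within the background reference range. That of Prkg1, 8.12, was above it.

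Carbonic anhydrases other than Car2 also lay mostly above 0. Of the 14 measured, 12 had a difference above 0, against 64.8% of all probe sets. Their median was 0.15 against 0.06 for all probe sets, and 0 passed. With arrays centred on their median, 10 of the 14 lay above 0, with a median of 0.07 against -0.02 for all probe sets. The mean levels of Car4, Car5a, Car7, Car8, Car9, Car10, Car14 and Car15 were within the background reference range. Without centring, 2 of the 14 had an unadjusted limma p under 0.05, both higher. Car13, a cytosolic form, was at 8.15, 8.04 and 7.996 on the occluded and 7.66, 7.65 and 7.81 on the contralateral arrays, a log2 difference of 0.35 (SE 0.09) at an unadjusted limma p of 0.00748 and an adjusted p of 0.823. Car3, the form of muscle and fat, was at 10.93, 10.55 and 10.44 on the occluded and 9.86, 9.94 and 10.43 on the contralateral arrays, a log2 difference of 0.56 (SE 0.19) at an unadjusted limma p of 0.0245 and the same adjusted p. Contralateral replicate 3 came within a small margin of occluded replicate 3 for Car3. The within-array ratio of Car2 to Car13 differed by -0.06 between the sides (exact permutation p = 0.9, adjusted 0.9) and that of Car2 to Car3 by -0.27 (exact p = 0.5, adjusted 0.75). The sides overlapped for both ratios. As this test cannot reach 0.05 with 3 against 3 arrays, it cannot decide whether either ratio differs. Car6, the secreted salivary form, ranged from 5.61 on occluded replicate 1 to 10.22 on occluded replicate 3.

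For the channel and transcription factor members that were not measured, relatives are described instead. The 5 measured relatives of Trpc2 had a median of -0.01 and 0 at an unadjusted p under 0.05 by limma. The smallest p among them was that of Trpc4, a receptor-operated channel subunit, at -0.13 (SE 0.09). The mean level of Trpc4, 7.51, was within the background reference range. The 5 homeobox regulators and partners listed with Emx1 had a median of -0.01 and likewise 0 at an unadjusted p under 0.05. Emx2, its paralogue and a regulator of odorant receptor expression, was at -0.03 (SE 0.12), and Dlx5, which had the smallest p, at 0.06 (SE 0.09).

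The canonical odour transduction genes give the closest comparison for the whole set. Of 14 measured, 11 lay above 0, against 64.8% of all probe sets, with a median of 0.10, and 0 passed. The median was 0.07 without occluded replicate 1, with 1 gene higher at an unadjusted p under 0.05, and 0.03 with arrays centred on their median. At an unadjusted p under 0.05 there were Cnga2 and Ano2, the calcium-activated chloride channel, higher, the latter at 0.23 (SE 0.08), and Pde1c lower. A difference between this list and the noncanonical genes was not tested. With each array referred to the mean of the 8 mature neuron markers, the log2 difference was 0.27 for Gucy1b2 (SE 0.15), 0.14 for Car2, 0.03 for Pde2a and -0.22 for Cnga3, with limma adjusted p-values between 0.419 and 0.910. That reference moved the median of all probe sets to -0.11.

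**Figure D2:**
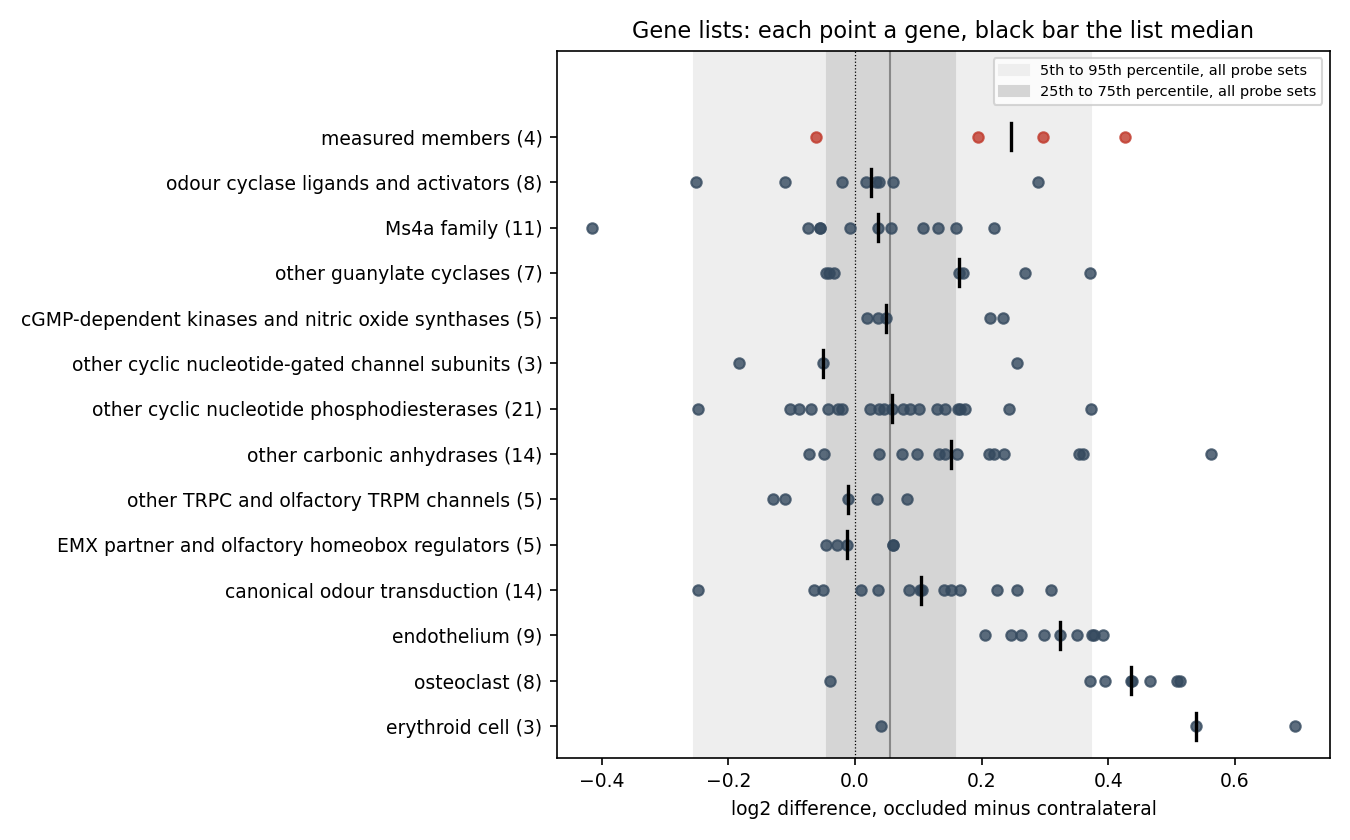
Log2 difference, occluded minus contralateral, of each measured gene (points) in the lists of cyclic GMP signalling, related families and other cell types, with list medians as black bars, the number measured in brackets, and the spread of all probe sets as grey bands. The 4 noncanonical neuron genes (red) have a median of 0.25, and the medians of the endothelium, osteoclast and erythroid lists are 0.32, 0.44 and 0.54.

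Car2 is also made by osteoclasts and red cell precursors, and Pde2a by endothelium. Markers of those cells lay higher on the occluded side. All 9 endothelium markers had a difference above 0, against 64.8% of all probe sets. Their median was 0.32, and none of the 9 had a mean under 7.80. Their summed level on the log2 scale ran from 11.26 to 11.81 on the occluded and from 11.04 to 11.27 on the contralateral arrays, highest on occluded replicate 1. Of 8 osteoclast markers 7 lay above 0, with a median of 0.44 and summed levels of 13.75 to 14.45 against 13.49 to 13.86. The exception, Calcr at a mean of 6.29, was within the background reference range. Of 9 erythroid markers 3 were measured and 3 lay above 0, with summed levels of 9.80 to 10.72 against 9.31 to 9.79. Of these 3, Epb42, with a mean of 6.47 and a difference of 0.04, was also within the background reference range. Without occluded replicate 1 the median differences were 0.19 for endothelium, 0.22 for osteoclasts and 0.74 for erythroid cells. None of these markers passed over all probe sets, and their part in the values of Car2, Pde2a, Gucy1b2 and the soluble cyclase subunits Gucy1a1 and Gucy1b1 was not tested.

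Set against the mean of the 9 endothelium markers on the same array, Gucy1b2 lay at -0.92, -0.91 and -0.92 on the occluded arrays 1, 2 and 3 and at -0.86, -1.01 and -1.21 on the contralateral arrays, on the log2 scale. With every array referred to those markers, the log2 differences were 0.11 for Gucy1b2 (SE 0.13), -0.02 for Car2 (SE 0.15), -0.12 for Pde2a (SE 0.11) and -0.38 for Cnga3 (SE 0.21). Thus the sign of Car2 and Pde2a turned and the value for Gucy1b2 was smaller, while the median of all probe sets moved to -0.26. The reference takes the same amount from the difference of every probe set, so these shifts are not particular to the 4 genes. Vomeronasal tissue, the main source of Trpc2, was read through 82 vomeronasal receptor genes, all with Vmn1r symbols, and through 9 other markers. No Vmn2r receptor was among those measured. The receptors had a median level of 3.98, under the lowest background reference gene, and a median difference of -0.10, with 26 of 82 above 0. At an unadjusted p under 0.05, 3 were higher and 6 lower, and their summed log2 level was 10.95 to 11.02 on the occluded and 11.15 to 11.19 on the contralateral arrays, without overlap. The 14 background reference genes had a median difference of -0.05, with 4 above 0. At such levels nothing is read from the receptor sum. The 9 markers had a median level of 8.10 and a median difference of -0.0035. Of them, H2-M10.1, H2-M10.2 and H2-M10.3, at means of 5.54, 6.10 and 6.05, were within the background reference range. H2-M1, at 4.92, was under it. The other markers, Robo2, Gng8, Gnao1, Gnai2 and Meis2, had means of 11.20, 11.18, 10.63, 10.53 and 8.10, above that range. The markers thus split by level, while the median level of the receptors lay under the background reference genes. These values do not decide whether vomeronasal tissue was present in the samples. Among these 9, Gnao1, a G protein subunit of basal vomeronasal neurons that other neurons also make, was at -0.02 (SE 0.11).

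**Figure D3:**
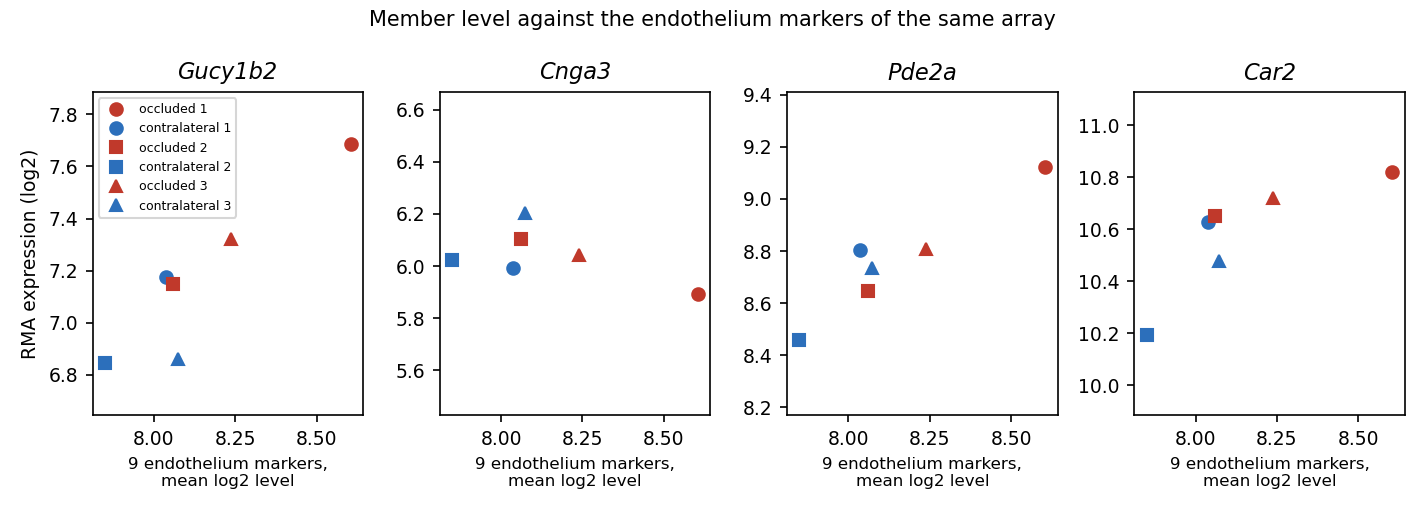
Log2 level of each noncanonical neuron gene (vertical axis) against the mean log2 level of 9 endothelium markers on the same array (horizontal axis), with occluded arrays in red and contralateral arrays in blue. Gucy1b2, Pde2a and Car2 are highest on occluded replicate 1, where the endothelium markers reach 8.61, and lowest on contralateral replicate 2, where they are at 7.85.

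**Figure D4:**
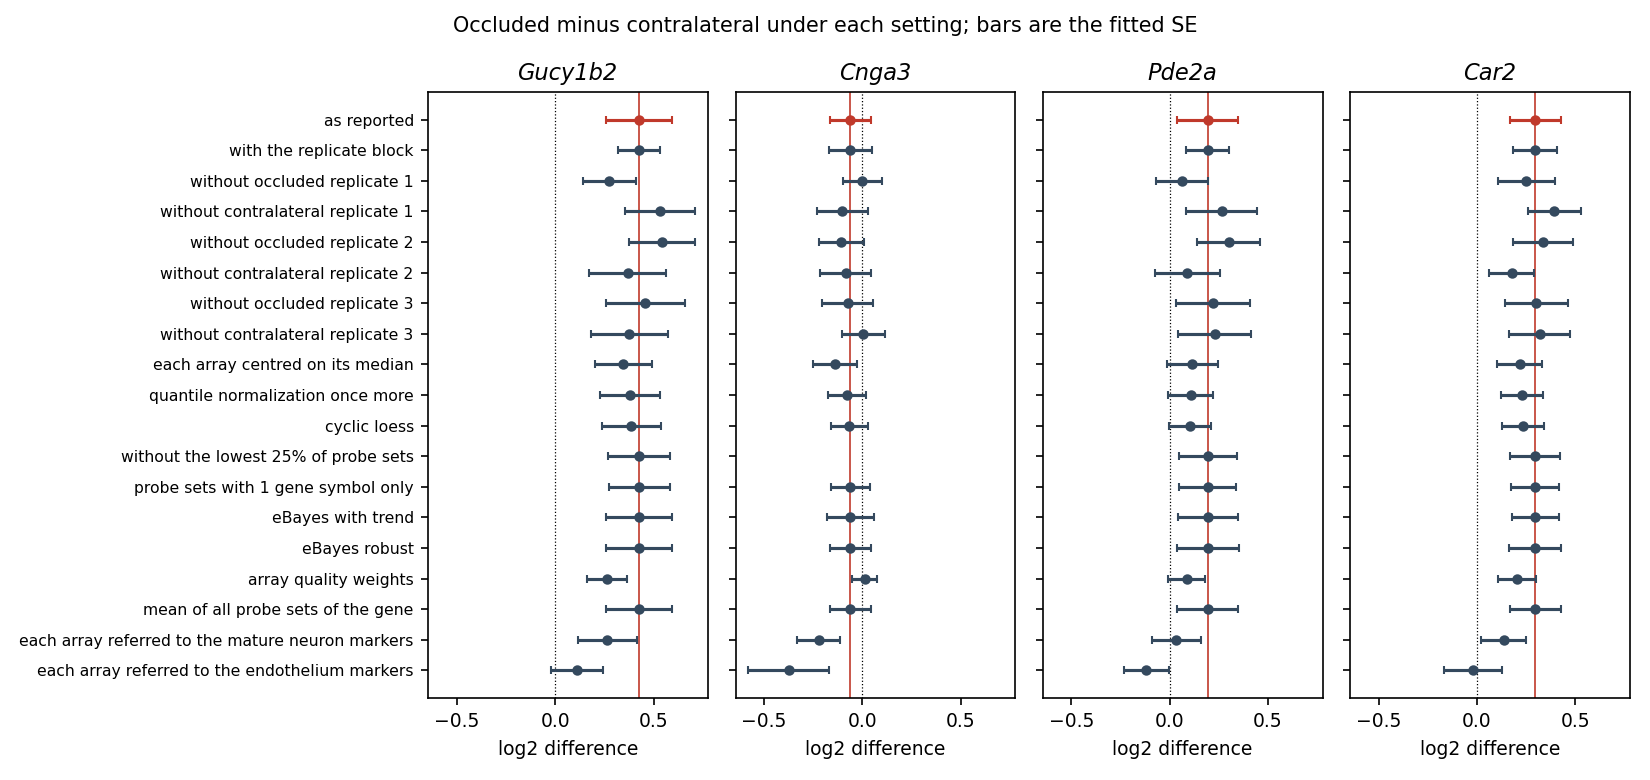
Log2 difference of each noncanonical neuron gene as reported (red) and under each other setting (dark points), with the fitted SE as bars. Gucy1b2 stays above 0 throughout, from 0.11 to 0.54, and Cnga3 lies on both sides of 0.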

How the data were processed

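Each epithelium's total RNA was measured on its own array, the Mouse Exon 1.0 ST type from Affymetrix. Per the labels, the authors computed the deposited log2 values as core-gene RMA summaries in Expression Console, whose version the labels do not give. RMA can shrink differences that affect many genes. The number of arrays, not a depth, limits the precision.

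Of 23332 probe sets, 14996 had 1 gene symbol in the platform annotation, 1019 several and 7317 none; 14941 of the first matched the reference table by Entrez identifier. Per gene, the single-symbol probe set with the highest mean was used. The 2 sides were fitted without a replicate block in limma 3.58.1 under R 4.3.3 (lmFit and eBayes, two-sided), adjusted by Benjamini-Hochberg over all probe sets at a threshold of 0.05, and the fit was tested on simulated data. Within-array ratios, chosen after values were seen, had exact permutation tests.

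Genes named: all members, per list up to 2 per direction with an unadjusted p under 0.05, otherwise the one with the smallest p, and the 2 genes most like each member. Guca2b, Hpca, Npr1, Npr2, Gucy2e, Gucy2f, Gucy2g, Cngb1, Cngb3, Emx2, Car6, Calcr, Epb42, H2-M1, H2-M10.1, H2-M10.2, H2-M10.3 and Gnao1 were named after their values were seen. So were Car4, Car5a, Car7, Car8, Car9, Car10, Car14, Car15, Prkg2, Nos1, Nos2, Nos3, Robo2, Gng8, Gnai2, Meis2, Trpc1, Trpc6, Trpc7 and Trpm5. Marker lists also covered sustentacular, microvillar and tuft cells, with median differences of -0.02 and 0.07. Members and lists were chosen with earlier results of these data known. Alternatives tried were the replicate block, each array omitted in turn, 3 other scalings and 2 marker references, filters, variance priors, array weights and thresholds.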

Additional observations from a re-analysis of the deposited data

How the results depend on the processing

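No alternative with adjustment brought any of the 4 genes past the threshold; over the alternatives the limma adjusted p ran from 0.192 to 1.00 for Gucy1b2 and from 0.259 to 1.00 for Car2. At an unadjusted p under 0.05 there was 1 of the 4 and 1233 probe sets in all, and 0 to 2 of the 4 over the alternatives. There were 2, Gucy1b2 and Car2, with the replicate block, without contralateral replicate 1, with a variance trend, with single-symbol probe sets and without the lowest 25%. There were 0 without occluded replicate 1 or 3, without contralateral replicate 2 or 3, with arrays centred on their median and with either marker reference. With centred arrays Gucy1b2 was at 0.35 and Car2 at 0.22, with unadjusted limma p-values of 0.0512 and 0.102. Over all probe sets the calls were 0 to 1 when each array was left out, 1 with single-symbol probe sets only and 62 with array weights, whose estimation did not converge. The median of the 4 genes, 0.25, ran from 0.13 to 0.33 with an array left out. It was 0.17 with each of the 3 other scalings and -0.069 with arrays referred to the endothelium markers. That setting and the reference to mature neuron markers were chosen after seeing the data. Leaving out each array gave 0.28 to 0.54 for Gucy1b2, 0.18 to 0.39 for Car2, 0.06 to 0.30 for Pde2a and -0.11 to 0.0049 for Cnga3. The sign turned for Cnga3 with array weights (0.011), and with the endothelium reference for Pde2a (-0.12) and Car2 (-0.018). The cause was not tested. Centring arrays on their median moved the median of all probe sets to -0.02 and the unadjusted calls to 510 higher and 873 lower, from 890 and 343. Cnga3 was lost with the lowest 25% of probe sets. Same-numbered arrays are not stated to share a mouse, and their deviations correlated at 0.01, 0.17 and -0.04. With the replicate block the calls stayed at 0, and Gucy1b2 and Car2, at 0.43 and 0.30, had unadjusted limma p-values of 0.00952 and 0.0437 and an adjusted p of 0.830.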
